A study of Mus musculus with 12 samples.

Results

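The genes described here are 38 leukocyte genes, a set of macrophage, monocyte, granulocyte and lymphocyte genes of the testis. They were chosen by gene name from the 54532 genes of the count table, and all 38 were found there and in the table of length-scaled values. By role they fall into 5 genes of all leukocytes, 10 of macrophage and myeloid identity, 3 of complement C1q, 4 of resident macrophage surface or secretion, 4 Fc receptor, adaptor and lipopolysaccharide co-receptor genes, 4 of major histocompatibility complex (MHC) class II, 3 of monocytes and neutrophils and 5 of lymphocytes.

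Macrophages settle in the testis before birth and lie among the Leydig cells, along the vessels and around the cords that hold the germ cells. They survive on signals through the receptor encoded by Csf1r, take up dying cells and debris, and are marked by lysosomal enzymes, complement C1q and scavenger receptors. Lymphocytes, monocytes and neutrophils reach the tissue through the blood, and B lymphocytes carry an antigen receptor built from an immunoglobulin heavy chain and the signalling chains encoded by Cd79a and Cd79b. Dexamethasone (dex), which was given here, is a synthetic glucocorticoid, and glucocorticoids are widely used to dampen immune responses.

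RNA was measured in 12 bulk libraries from male mice of the strain Tg(Pou5f1-EGFP)2Mnn, in which a Pou5f1 promoter drives green fluorescent protein (GFP) in germ cells. Dams received dex at 10 μg per gram of weight, or saline, at E17.5 and E18.5, their pups received the same dose at PN0, and testes were taken at PN1. Cells of the dissociated testes that carried GFP were collected as germ cells and those without it as somatic cells, and with dex and saline this gave 4 groups of 3 libraries each. Every library thus came from transgenic animals, saline included, and each replicate pooled testes of at least 2 litters. The sort gated on GFP, single cells and live cells, with no leukocyte marker named in the methods, so the somatic fraction held whatever GFP-negative cells the dissociated testis contained. In such bulk RNA, fewer cells of a type and less RNA per cell cannot be told apart.

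Library totals lay between 18459692 and 25178477 counts. Levels are given as CPM, counts scaled to the TMM-adjusted library size, when a gene is compared between libraries, and as FPKM, which is scaled by gene length, when genes are compared with each other. A library with 0 counts of a gene allows up to 3, equal to 0.111 to 0.170 CPM depending on the library, and such floors and the counts behind them cover counting error only. A gene was called where the adjusted p of edgeR's quasi-likelihood test (Benjamini-Hochberg over all genes tested) was at or under 0.05, and errors of log2 fold changes are standard errors (SE). The germ markers summed to 2215 to 2493 CPM in germ libraries and to 7.53 to 8.42 CPM in somatic libraries, so germ RNA was a small part of the somatic fraction. The Sertoli markers summed to 3704 to 4379 CPM in somatic libraries and to 31.7 to 58.5 CPM in germ libraries.

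The stretches of DNA just before the start of 5 of these genes are shown because 4 of them (Mrc1, Ctss, Lyz2 and Mpeg1) were lower in dex somatic cells and the last (S100a9) was not. PU.1, the factor encoded by the member Spi1, binds sites with the core GAGGAA, and capitals mark every copy of that core or of its reverse complement TTCCTC. The sequences are from RefSeq on GRCm38.p6, read in the direction of transcription and cut off before any annotated exon.
Mrc1, chr2:14229164-14229391, plus strand: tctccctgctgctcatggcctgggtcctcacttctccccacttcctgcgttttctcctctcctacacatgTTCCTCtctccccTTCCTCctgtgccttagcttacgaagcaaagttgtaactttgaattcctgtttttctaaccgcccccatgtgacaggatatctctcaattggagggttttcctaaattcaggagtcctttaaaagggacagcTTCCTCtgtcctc
Ctss, chr3:95526536-95526785, plus strand: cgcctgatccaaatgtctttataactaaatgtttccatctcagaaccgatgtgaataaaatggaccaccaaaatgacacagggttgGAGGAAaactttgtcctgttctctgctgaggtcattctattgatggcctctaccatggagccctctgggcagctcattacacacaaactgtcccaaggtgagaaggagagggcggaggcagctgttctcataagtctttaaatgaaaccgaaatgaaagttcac
Lyz2, chr10:117282322-117282522, minus strand: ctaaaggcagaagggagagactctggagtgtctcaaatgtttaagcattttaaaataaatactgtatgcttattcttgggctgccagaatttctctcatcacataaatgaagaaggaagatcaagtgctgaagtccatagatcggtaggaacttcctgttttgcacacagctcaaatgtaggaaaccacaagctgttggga
Mpeg1, chr19:12460520-12460769, plus strand: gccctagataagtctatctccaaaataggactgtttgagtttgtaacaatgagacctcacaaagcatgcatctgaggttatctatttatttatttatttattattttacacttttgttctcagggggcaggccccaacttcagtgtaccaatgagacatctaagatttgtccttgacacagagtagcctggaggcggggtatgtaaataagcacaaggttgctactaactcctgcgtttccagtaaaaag
S100a9, chr3:90695722-90695971, minus strand: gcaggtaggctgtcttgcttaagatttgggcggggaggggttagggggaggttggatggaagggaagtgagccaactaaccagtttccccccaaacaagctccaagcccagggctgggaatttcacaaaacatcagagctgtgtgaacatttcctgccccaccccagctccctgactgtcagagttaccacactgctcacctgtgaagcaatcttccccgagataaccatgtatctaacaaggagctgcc

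Mrc1 held 3 copies of the core and Ctss held 1, whereas Lyz2, Mpeg1 and S100a9 held none within these bases. RefSeq windows of 250 bases were at hand for 25 of the 38 genes, in 28 windows because some genes have several starts. GAGGAA on either strand stood in 14 of the 28 windows (50%) and in 23.3% of all 32851 mouse windows of that length. The window of S100a8, not called in somatic cells, held 2 copies. Of other genes called lower there, Laptm5 and Cd79a held 1 each, and Cx3cr1 and Coro1a held 0. Whether copies went with the calls was not tested. The related core GGAAGT stood in 13 member windows (46.4%) and in 19.7% of all windows, and both cores can overlap in 1 site. The glucocorticoid response element, searched on both strands as GNACA, 3 bases of any kind and TGTNC, stood in none of the member windows and in 0.387% of all windows. TATAAA on the forward strand stood in 2 member windows (7.14%) and in 7.59% of all windows. A match is a description of the letters and says nothing of binding, and no match says only that these letters are not in this window.

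Dex somatic cells were compared with saline somatic cells to ask which leukocyte transcripts moved with the hormone in the fraction that holds the leukocytes. Of the 38 genes 35 had enough counts to be tested, and 11 were called, all of them lower with dex: Laptm5, Coro1a, Csf1r, Cx3cr1, Mpeg1, Lyz2, Ctss, Mrc1, Tyrobp, Ighm and Cd79a. Over all 16766 genes tested, 1.17% were called lower and 2.74% higher. The log2 fold changes of the 35 ran from -3.80 to 0.69 with a median of -1.14, against a median of -0.01 over all genes tested, and 32 of the 35 had a negative sign against 51.2% of all genes. The libraries of 17 of the 35 did not overlap, with dex lower each time, which was so for 12% of all genes tested. None had its dex libraries all above the saline ones (9.38% of all genes). Of the 35, 20 had at least 10 counts in all 3 dex libraries, and 10 reached that in all 3 saline libraries but not in all dex libraries, so the filter itself favoured members high in saline. H2-Aa, H2-Ab1 and Cd3e had too few counts.

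**Figure D1:**
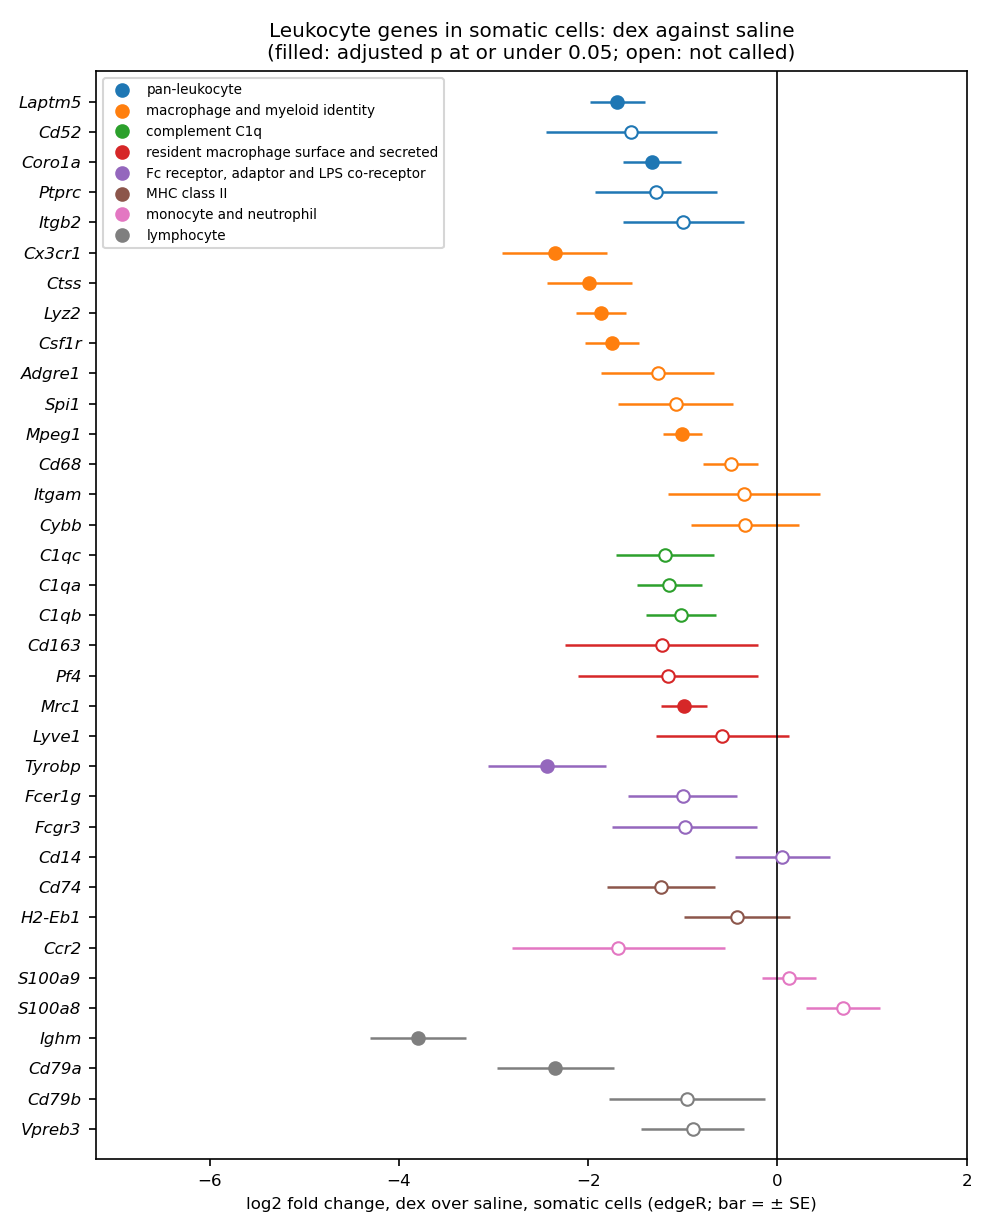
Log2 fold change of dex over saline in somatic cells (horizontal axis) for the 35 leukocyte genes tested, grouped and coloured by role; bars are ± SE from edgeR on 3 against 3 libraries. The 11 filled points, called at an adjusted p at or under 0.05, all lie below 0, and S100a8, S100a9 and Cd14 lie above 0 without being called.

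The summed level of the 38 genes was 169 ± 47.4 CPM (SD, n = 3) in saline somatic cells, with libraries from 137 to 223 CPM. It was 82.8 ± 12.5 CPM (n = 3) in dex somatic cells, from 68.3 to 90.8 CPM, so no dex library reached the lowest saline library on that scale, and the ratio of the means was 0.490. Summed as FPKM, the groups overlapped, with dex replicate 2 at 83.3 FPKM and saline replicate 2 at 80.5 FPKM. The 3 monocyte and neutrophil genes made up 52.4 FPKM of the sum in dex replicate 2 and 19.0 FPKM in saline replicate 2. Saline replicate 3 was the highest of all 12 libraries for 9 of the 10 macrophage and myeloid identity genes and for the 3 C1q chains. With that library left out, 4 of the 38 genes were called. With dex replicate 2 or dex replicate 3 left out, 5 were called. Fits with fewer libraries can also change the share called over all genes, which is not given here for them. Loss of power and a trait of these genes therefore cannot be told apart by these counts.

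Of the 5 genes carried by all leukocytes, Laptm5 and Coro1a fell and the other 3 were not called. Laptm5 encodes a lysosomal membrane protein of blood cells. It measured 9.08, 7.99 and 10.4 CPM in saline replicates 1, 2 and 3 and 3.74, 1.82 and 2.82 CPM in dex replicates 1, 2 and 3. The lowest saline library was above the highest dex library, and the log2 fold change was -1.69 ± 0.29 (adjusted p = 0.00351, edgeR). Coro1a, the actin-binding protein coronin 1A, measured 6.998, 5.40 and 9.76 CPM in the saline libraries and 3.45, 2.53 and 2.72 CPM in the dex libraries. All saline libraries were above all dex libraries, and the log2 fold change was -1.33 ± 0.31 (adjusted p = 0.0235, edgeR). Ptprc, which encodes CD45, measured 1.62, 1.45 and 1.41 CPM in saline and 0.849, 0.304 and 0.655 CPM in dex. Its groups did not overlap either, but at 29 to 33 counts in saline libraries and 6 to 15 in dex libraries the log2 fold change of -1.28 ± 0.64 was not called (adjusted p = 0.354, edgeR). Itgb2, the shared beta chain of leukocyte integrins, was at 1.47, 0.790 and 3.11 CPM in saline and 0.679, 1.17 and 0.806 CPM in dex, with overlap. Cd52, a small surface glycoprotein, ranged from 0.176 to 2.04 CPM in saline and from 0.101 to 0.655 CPM in dex.

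Of the 10 genes of macrophage and myeloid identity, 5 fell and the other 5 were not called, all 10 with a negative sign. Csf1r, the receptor for the macrophage growth factors CSF1 and IL-34, measured 8.98, 9.66 and 17.3 CPM in saline somatic replicates 1, 2 and 3 and 4.13, 3.45 and 2.97 CPM in the dex replicates. The groups were apart, with saline replicate 3 far above the other saline libraries, and the log2 fold change was -1.75 ± 0.28 (adjusted p = 0.002, edgeR). Cx3cr1, the receptor for fractalkine, measured 4.01, 3.16 and 10.2 CPM in saline and 1.75, 1.27 and 0.353 CPM in dex. Its groups were also apart, with a log2 fold change of -2.36 ± 0.55 (adjusted p = 0.0242, edgeR), and without saline replicate 3 it was -1.64 and no longer called (adjusted p = 0.231, edgeR). Of the exon bases of Csf1r, 15.1% overlap those of Hmgxb3 on the opposite strand, whose counts summed to 4324 in saline and 4008 in dex somatic libraries against 754 and 200 for Csf1r. The strand setting of the counting is not given in the sources used here, so reads in that overlap may have been counted for either gene or dropped.

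Lyz2, which encodes lysozyme and had the highest FPKM of the macrophage identity genes in saline somatic cells (12.7 FPKM), measured 14.8, 13.4 and 25.2 CPM in saline and 5.55, 5.37 and 3.53 CPM in dex. The log2 fold change was -1.87 ± 0.27 (adjusted p = 0.000574, edgeR). Mpeg1, the pore-forming protein perforin-2 of macrophages, measured 13.7, 12.7 and 19.5 CPM in saline and 7.98, 7.10 and 7.41 CPM in dex. Its dex libraries lay close together below every saline library, with a log2 fold change of -1.01 ± 0.21 (adjusted p = 0.0105, edgeR). Ctss, the lysosomal protease cathepsin S that prepares MHC class II for peptides, was at 3.70, 4.21 and 5.44 CPM in saline and 1.75, 0.608 and 0.957 CPM in dex. The log2 fold change was -1.99 ± 0.45 (adjusted p = 0.0196, edgeR). Mpeg1 and Ctss were no longer called without saline replicate 3 (adjusted p = 0.082 and 0.119, edgeR). Lyz2 shares 8.54% of its 64-base words with its neighbour Lyz1.

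Cd68, a lysosomal glycoprotein, did not follow the order of these genes. It measured 5.17, 14.4 and 8.26 CPM in saline and 5.83, 7.15 and 6.25 CPM in dex, so that saline replicate 1 was below every dex library and saline replicate 2 was the highest. Its log2 fold change was -0.50 ± 0.30 (adjusted p = 0.451, edgeR). Spi1, which encodes PU.1, had a log2 fold change of -1.08 ± 0.60 and Adgre1, the F4/80 antigen, one of -1.27 ± 0.59. The dex libraries of Adgre1 (0.454 to 1.36 CPM) were all below its saline libraries (1.52 to 2.82 CPM), but the gene was not called (adjusted p = 0.31, edgeR). Cybb, the catalytic subunit of the phagocyte oxidase, measured 0.756 to 1.47 CPM in dex and 1.19 to 2.09 CPM in saline. Itgam, an integrin chain of myeloid cells, was below 1.07 CPM in each somatic library, and 68.7% of its exon bases are shared with the gene model Gm49368 on the same strand, so its counts are uncertain.

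**Figure D2:**
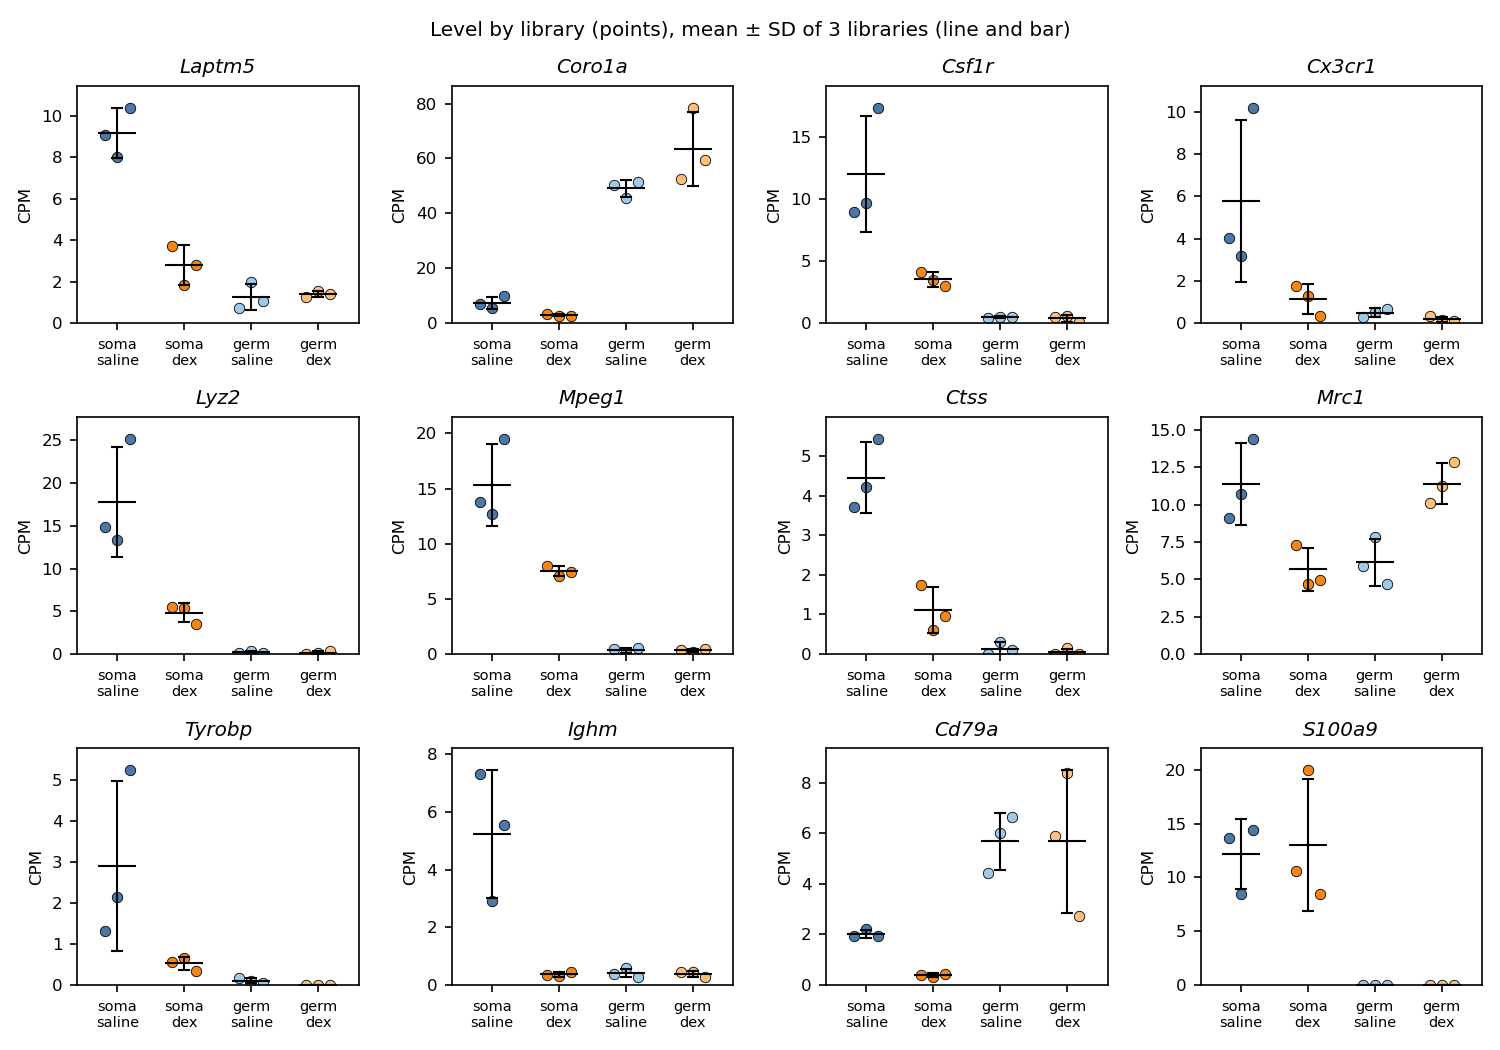
Level in CPM (vertical axis, from 0) of the 11 genes called in somatic cells and of S100a9 in each of the 12 libraries; points are libraries, lines are means and bars ± SD of 3 libraries. In somatic cells the saline points of the 11 genes lie above all dex points, whereas those of S100a9 overlap, and Coro1a, Mrc1 and Cd79a also have clear levels in germ cells.

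The 3 chains of complement C1q, the molecule that tags dying cells for uptake, had log2 fold changes between -1.19 and -1.02, and none was called. C1qa measured 8.57, 6.37 and 12.3 CPM in saline somatic replicates and 6.40, 2.53 and 3.33 CPM in dex replicates. Dex replicate 1 was level with saline replicate 2, and the log2 fold change was -1.14 ± 0.34 (adjusted p = 0.085, edgeR). It was called without dex replicate 1 (adjusted p = 0.023), without saline replicate 2 (adjusted p = 0.0456) and by DESeq2 (adjusted p = 0.028). C1qb ranged from 3.85 to 9.42 CPM in saline and from 2.49 to 3.24 CPM in dex, and C1qc from 3.69 to 5.78 CPM and from 0.403 to 2.84 CPM. Both had dex libraries below all saline libraries, and all 3 chains had an unadjusted p under 0.05, as 16.1% of all genes tested did.

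Mrc1, the mannose receptor CD206, was the only one of the 4 genes of resident macrophage surface or secretion to be called. It measured 9.08, 10.7 and 14.4 CPM in saline and 7.30, 4.71 and 4.99 CPM in dex, with no overlap and a log2 fold change of -0.99 ± 0.25 (adjusted p = 0.0333, edgeR). Without saline replicate 3 the log2 fold change was -0.76 and the call was lost (adjusted p = 0.199, edgeR). Lyve1, a hyaluronan receptor that lymphatic endothelium also carries, was at 0.609, 0.922 and 3.74 CPM in saline and 1.36, 1.57 and 0.554 CPM in dex. Its saline mean rested on replicate 3, and without that library the log2 fold change went from -0.58 to 0.64, neither of them called. Cd163, the scavenger receptor for haemoglobin with haptoglobin, and Pf4, platelet factor 4, stayed under 1.51 CPM in each somatic library.

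Among the Fc receptor and adaptor genes, Tyrobp fell and the others were not called. Tyrobp encodes DAP12, the adaptor that passes on signals from receptors of myeloid and natural killer cells. It measured 1.32, 2.15 and 5.25 CPM in saline and 0.566, 0.659 and 0.353 CPM in dex. The groups were apart with a log2 fold change of -2.43 ± 0.62 (adjusted p = 0.0396, edgeR), but saline replicate 3 was more than the other saline libraries together, and without it the adjusted p was 0.353 (edgeR). Fcer1g, the common signalling chain of Fc receptors, measured 2.54, 2.37 and 1.26 CPM in saline and 0.453, 1.37 and 1.16 CPM in dex, with saline replicate 3 below dex replicate 2. Fcgr3, a low-affinity receptor for immunoglobulin G, had a log2 fold change of -0.98 ± 0.77. Cd14, the lipopolysaccharide co-receptor, ranged from 0.878 to 5.93 CPM in saline and from 3.23 to 3.98 CPM in dex, with a log2 fold change of 0.05 ± 0.50.

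Of the 4 MHC class II genes 2 had enough counts to be tested, and neither was called. Cd74, the invariant chain, measured 1.83, 1.36 and 2.96 CPM in saline somatic replicates and 1.02, 0.608 and 0.957 CPM in dex replicates. The groups were apart, but the log2 fold change of -1.23 ± 0.57 was not called (adjusted p = 0.304, edgeR). H2-Eb1, a class II beta chain, measured 0.761, 2.63 and 2.09 CPM in saline and 1.25, 1.67 and 1.06 CPM in dex, with saline replicate 1 below every dex library. H2-Aa and H2-Ab1 were at most 1.55 CPM in each somatic library, and H2-Ab1 had no counts in dex replicate 3.

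Of the 3 genes of monocytes and neutrophils none was called, with 2 positive signs and 1 negative. S100a9, a subunit of calprotectin, the calcium-binding complex that fills the cytosol of neutrophils, measured 13.6, 8.47 and 14.4 CPM in saline and 10.6, 20.02 and 8.47 CPM in dex. The groups overlapped, dex replicate 2 was the highest, and the log2 fold change was 0.12 ± 0.29 (adjusted p = 0.889, edgeR). Its partner S100a8 measured 3.19, 3.12 and 6.07 CPM in saline and 4.25, 10.8 and 4.59 CPM in dex, a log2 fold change of 0.69 ± 0.39 (adjusted p = 0.416, edgeR). S100a9 had the highest FPKM of all 38 genes in saline somatic cells (22.0 FPKM) and in dex somatic cells (24.0 FPKM). Without dex replicate 2 the log2 fold change of S100a9 was -0.33, again not called. Ccr2, the chemokine receptor that brings monocytes out of the marrow, was at 0.304, 0.966 and 0.972 CPM in saline, at 0.659 CPM in dex replicate 2 and at 0 counts in the other dex libraries, a log2 fold change of -1.68 ± 1.13 that was not called (adjusted p = 0.516, edgeR).

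Of the 5 lymphocyte genes, Ighm and Cd79a fell, Cd79b and Vpreb3 were not called and Cd3e had too few counts. Ighm, the constant region of the immunoglobulin mu heavy chain, had the largest log2 fold change of the 35 genes. It measured 7.30, 2.90 and 5.54 CPM in saline and 0.340, 0.304 and 0.454 CPM in dex, so that dex libraries were within a few counts of the floor. The log2 fold change was -3.80 ± 0.51 (adjusted p = 0.000343, edgeR). Cd79a, a signalling chain of the B cell receptor, measured 1.93, 2.20 and 1.94 CPM in saline and 0.396, 0.304 and 0.454 CPM in dex. The saline libraries were close together and above all dex libraries, with a log2 fold change of -2.35 ± 0.62 (adjusted p = 0.0456, edgeR), and leaving out any of the 6 libraries ended the call. Vpreb3, a chaperone-like protein of B cell precursors, measured 2.43, 2.50 and 1.65 CPM in saline and 1.81, 0.557 and 1.11 CPM in dex, with dex replicate 1 above saline replicate 3. Cd79b, the other signalling chain, was at 0.571 to 0.680 CPM in saline and 0.101 to 0.566 CPM in dex. Cd3e, a chain of the T cell receptor complex, had no counts in any dex somatic library and 0, 0.176 and 0.340 CPM in the saline replicates.

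The calls differed in how far they depended on the fit. Ighm, Lyz2 and Laptm5 were called in all 13 or 14 alternative fits in which each could be tested, and Csf1r in 13 of 14. Mpeg1 was called in 11 of 14, Ctss in 10 of 14, Coro1a and Mrc1 each in 9 of 14, Cx3cr1 in 8 of 13, Cd79a in 6 of 13 and Tyrobp in 5 of 13. Ighm and Cd79a reached 10 counts in 0 of the 3 dex somatic libraries, and Cx3cr1 and Tyrobp in 2. These genes passed the filter through their saline libraries, which favoured a lower value. None of them could be tested in the fit that required 10 counts in every library.

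Other cell types also differed in the somatic libraries, and their part in the leukocyte results was not tested. The 7 erythroid markers summed to 256 to 394 CPM in saline and 85.3 to 299 CPM in dex, and 2 of the 4 tested, the globin genes Hbb-bt and Hbb-bs, were called lower (log2 fold changes -1.29 ± 0.34 and -1.21 ± 0.32). All 4 tested had a negative sign, with a median log2 fold change of -1.04. The 6 endothelial markers summed to 246 to 283 CPM in saline and 247 to 322 CPM in dex, with Tek called lower (-1.23 ± 0.29). Most of that sum was Cdh5 (0.23 ± 0.11), with 4061 to 5966 counts per somatic library against at most 360 for any other of the 6. The other 5 had a negative sign, and the median of the 6 was -0.60. Pecam1 (-0.705 ± 0.20), Tek and Tie1 (-1.04 ± 0.37) had all dex libraries below all saline libraries, as 12% of all genes tested did. The 6 peritubular and stromal markers summed to 4654 to 6125 CPM in saline and 7722 to 8841 CPM in dex, and Acta2, Col1a1 and Pdgfra were called higher. The 6 Leydig markers summed to 120 to 205 CPM in saline and 86.4 to 177 CPM in dex, with Star called lower. Of the 3 lymphatic endothelial markers (57.1 to 76.1 CPM in saline, 48.1 to 57.0 CPM in dex) and the 6 Sertoli markers (4059 to 4379 and 3704 to 4226 CPM) none was called. The 4 megakaryocyte and platelet markers stayed between 2.53 and 5.26 CPM in sum.

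The wider immune lists, which hold no member, were counted in the same fit. Over all 16766 genes tested there, 1.17% were called lower, 2.74% higher and 51.2% had a negative sign. Of 65 other macrophage and myeloid genes 51 were tested, 4 were called lower and none higher, with 41 of negative sign and a median log2 fold change of -0.48. The 4 were Stab1, a scavenger receptor of macrophages and sinusoidal endothelium (-1.68 ± 0.28), Lcp1, the actin-bundling L-plastin (-1.29 ± 0.27), Hcls1, a cortactin-like protein of blood cells (-2.34 ± 0.55), and Cd180, a Toll-like receptor of B cells and macrophages (-3.93 ± 0.98). Stab1 measured 13.3, 20.3 and 17.6 CPM in saline replicates and 7.47, 2.84 and 5.44 CPM in dex replicates, with no overlap. Cd180 fell to 0, 0.0507 and 0.151 CPM in dex from 1.47, 0.746 and 1.26 CPM in saline, which leaves it within the floor in each dex library. With dex counts of 0, 1 and 3 for Cd180 and 10, 8 and 10 for Hcls1, both passed the filter through their saline libraries, which favoured a lower value.

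In the list of 21 monocyte and granulocyte genes 13 were tested, 3 were called higher and none lower, with 9 of positive and 4 of negative sign and a median log2 fold change of 0.48. Of all genes tested, 2.74% were called higher, 1.17% lower and 51.2% had a negative sign. Chil3, the chitinase-like protein Ym1, measured 0, 0.176 and 0.534 CPM in saline replicates and 6.85, 9.83 and 2.12 CPM in dex replicates. All dex libraries were above all saline libraries, with a log2 fold change of 4.71 ± 0.74 (adjusted p = 0.00156, edgeR). At 121, 194 and 42 counts in dex and 0, 4 and 11 in saline, Chil3 passed the filter through its dex libraries, which favoured a higher value. Mmp8, the collagenase of neutrophil granules, measured 1.22, 0.659 and 1.07 CPM in saline and 3.91, 7.45 and 2.42 CPM in dex, a log2 fold change of 2.25 ± 0.49 (adjusted p = 0.0157, edgeR). Plac8, expressed in myeloid cells and also in epithelia, measured 4.41, 6.85 and 7.97 CPM in saline and 12.8, 13.4 and 11.1 CPM in dex, a log2 fold change of 0.98 ± 0.23 (adjusted p = 0.0228, edgeR). All 3 genes were highest in dex replicate 2, the library that was also highest for S100a8 and S100a9. The other 10 genes tested were not called. Among them Lcn2 (1.01 ± 0.35), Ngp (0.15 ± 0.38), Mmp9 (-0.31 ± 0.57), Camp (-0.52 ± 0.71) and Ltf (-0.62 ± 0.45) are named here after their values were seen. So is F13a1, whose dex libraries (76, 75 and 68 counts) were all above its saline libraries (22, 53 and 49 counts). Of the 13 tested, 4 had all dex libraries above all saline ones (9.38% of all genes) and 1 had them all below (12% of all genes).

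**Figure D3:**
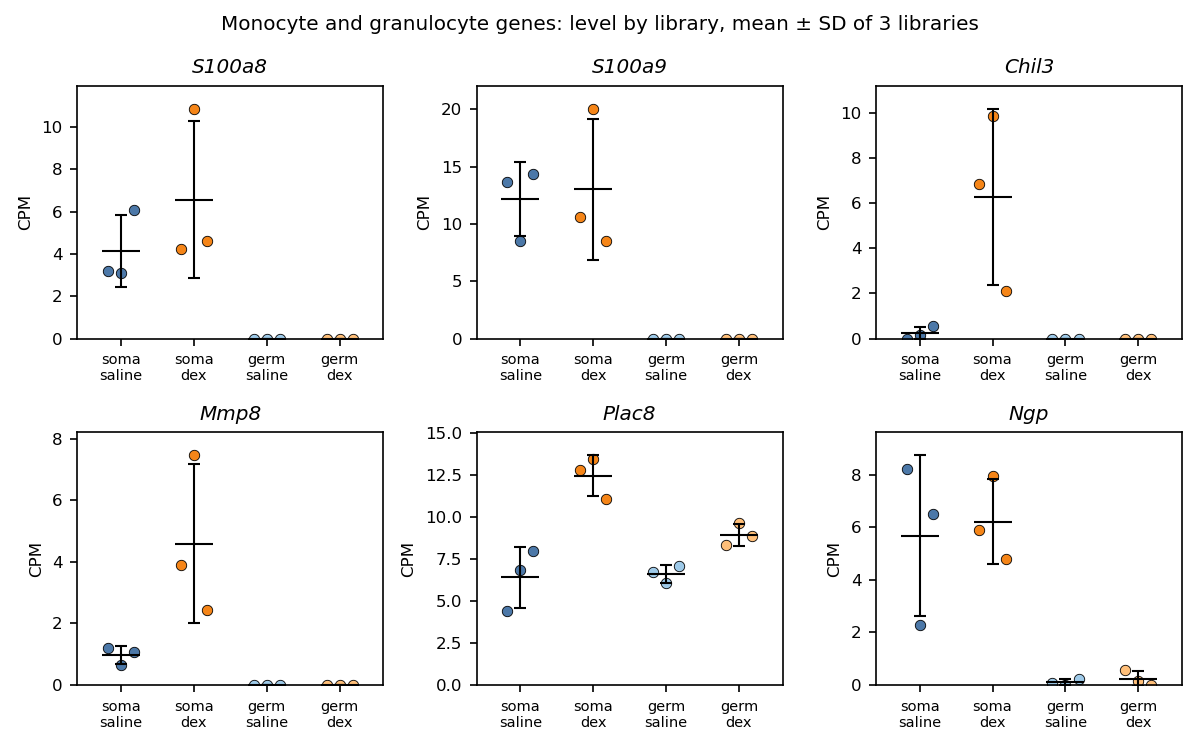
Level in CPM (vertical axis, from 0) of S100a8, S100a9, Chil3, Mmp8, Plac8 and Ngp in each of the 12 libraries; points are libraries, lines are means and bars ± SD of 3 libraries. In somatic cells the dex points of Chil3, Mmp8 and Plac8 lie above all saline points, while those of the other 3 genes overlap.

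Of the 19 chemokine and cytokine genes 10 were tested, and 1 was called lower and 1 higher (1.17% and 2.74% of all genes). Tnf, the tumour necrosis factor made by activated macrophages, was called lower (-2.34 ± 0.53, adjusted p = 0.0194, edgeR), and Cxcl12, a chemokine of stromal cells that holds leukocytes and their precursors in tissue, was called higher (0.55 ± 0.10, adjusted p = 0.00419, edgeR). Cxcl12 measured 303, 386 and 358 CPM in saline replicates and 543, 528 and 430 CPM in dex replicates, so the groups were apart. Of the 6 growth factor and chemoattractant ligand genes 3 were tested and none was called, and Csf1, a ligand of the Csf1r product named here after its value was seen, had a log2 fold change of 0.06 ± 0.13. None was called of the 5 tested of 21 T, NK and innate lymphoid genes, the 4 tested of 17 B cell genes, the 4 tested of 8 mast cell and basophil genes or the 9 tested of 12 antigen presentation genes. At an unadjusted p under 0.05 these 4 lists held 1, 0, 0 and 2 genes in the edgeR fit and the ligand list 1, and 16.1% of all genes tested had such a p. DESeq2 and limma called 0 genes in each of the 5 lists.

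Saline germ cells were compared with saline somatic cells to place each leukocyte gene in the fraction where its RNA lay. Of the 38 genes 33 were tested, 24 were called, 20 lower in germ cells and 4 higher, while over all 18870 genes tested 76.5% were called, 36.7% lower and 39.8% higher. The same numbers, 20 and 4, had saline libraries that did not overlap, against 38% and 41.7% of all genes, and 25 had an unadjusted p under 0.05, against 77.9%. Of the genes called lower, S100a8, S100a9 and Cybb had 0 counts in every saline germ library. Ptprc, Adgre1, Lyz2, Ctss, Tyrobp and the C1q chains had fewer than 10 counts in each. All of these passed the filter through their somatic libraries, which favoured a lower value in germ cells. Most macrophage genes were close to absent from the GFP-positive sort. The 10 macrophage and myeloid identity genes summed to 6.04 to 9.81 CPM in saline germ cells against 56.1 to 96.3 CPM in saline somatic cells, and Cd68 and Spi1 made up most of the germ cell sum. The 3 C1q chains summed to 0.263 to 0.857 CPM in germ and 14.5 to 27.5 CPM in somatic libraries. S100a8, S100a9 and Ccr2 had 0 counts in all 6 germ libraries. Bounds were set by the saline somatic mean over the mean floor of 3 counts in saline germ libraries. By these group means S100a9 was at least 84.8-fold lower in saline germ cells, S100a8 at least 28.8-fold, Cybb at least 10.9-fold and Ccr2 at least 5.21-fold. Single libraries can lie closer to the floor, as Ccr2 did with 6 counts in saline somatic replicate 1.

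**Figure D4:**
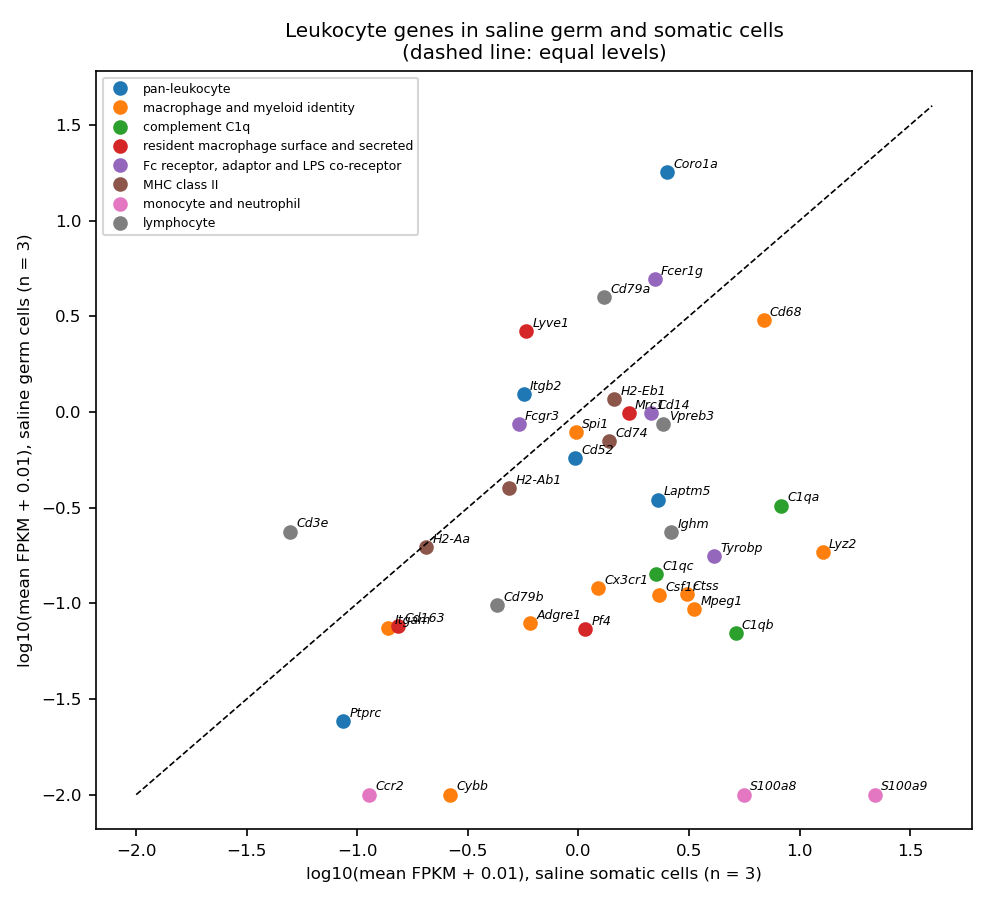
Mean level of each of the 38 genes in saline somatic cells (horizontal axis) and saline germ cells (vertical axis), both as log10(FPKM + 0.01) over 3 libraries, coloured by role; the dashed line marks equal levels. The 4 genes called higher in germ cells (Coro1a, Fcer1g, Cd79a and Lyve1) lie above the line, as do Itgb2, Fcgr3 and Cd3e, which were not called or not tested, and S100a8, S100a9, Cybb and Ccr2 lie at the bottom, where the germ cell value is listed at 0.

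The 4 genes called higher in germ cells were Coro1a, Lyve1, Cd79a and Fcer1g. Coro1a had the highest FPKM of the 38 genes in germ cells (17.95 FPKM in saline and 23.5 FPKM in dex, against 2.50 FPKM in saline somatic cells). It measured 50.4, 45.5 and 51.3 CPM in saline germ replicates, far above its 5.40 to 9.76 CPM in saline somatic cells, with a log2 fold change of 2.73 ± 0.19 (adjusted p = 6.41e-08, edgeR). Lyve1 measured 6.66, 8.44 and 7.48 CPM in saline germ replicates, above all saline somatic libraries (2.09 ± 0.52, adjusted p = 0.00279, edgeR). Cd79a measured 4.42, 5.99 and 6.62 CPM in saline germ replicates, again above all saline somatic libraries (1.48 ± 0.29, adjusted p = 0.000591, edgeR), although its partner Cd79b was lower in germ cells (-2.29 ± 0.67, adjusted p = 0.008, edgeR). Of the 64-base words of Cd79a, 6.03% also occur in the gene model Gm32220. Fcer1g measured 3.37, 4.53 and 4.81 CPM in saline germ replicates (1.03 ± 0.35, adjusted p = 0.0182, edgeR), while Tyrobp, the other adaptor, was at 0.0476 to 0.175 CPM. The call of Fcer1g was lost without saline germ replicate 2 or 3 or saline somatic replicate 3 (adjusted p = 0.0523 to 0.0771, edgeR).

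The other members with a measurable level in germ cells were not called or were lower there. Itgb2 was at 2.89 to 4.58 CPM in saline germ cells and was not called (1.04 ± 0.46, adjusted p = 0.058, edgeR), with saline somatic replicate 3 inside the germ range. Mrc1 measured 5.87, 7.81 and 4.72 CPM in saline germ replicates, below all saline somatic libraries (-0.90 ± 0.25, adjusted p = 0.00597, edgeR). Spi1 was at 1.93 to 2.14 CPM and Cd14 at 0.729 to 1.93 CPM, neither called. The 3 class II genes tested, Cd74, H2-Ab1 and H2-Eb1, were not called, with log2 fold changes from -1.11 to -0.37. Cd3e, at 0.0953 to 1.45 CPM in saline germ cells, was not tested.

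Dex germ cells were compared with saline germ cells to see whether the same genes moved in the GFP-positive fraction. Of the 38 genes 19 were tested and none was called by edgeR, against 1.25% of all 18550 genes tested. At an unadjusted p under 0.05 there were 3, Mrc1, Coro1a and Spi1, all with a positive sign (14.7% of all genes had such a p), and DESeq2 called 1 of the 38, Mrc1. The log2 fold changes of the 19 ran from -0.43 to 0.89, with 8 negative. In all, 5 of the 19 had libraries that did not overlap, 4 higher with dex (Mrc1, Coro1a, Spi1 and Cd14, 10.5% of all genes) and 1 lower (Lyve1, 9.55% of all genes).

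Mrc1 measured 10.1, 11.3 and 12.8 CPM in dex germ replicates against 5.87, 7.81 and 4.72 CPM in saline germ replicates. All dex libraries were above all saline libraries, with a log2 fold change of 0.89 ± 0.21 at an adjusted p of 0.0508 (edgeR), just over the threshold. It passed with library totals in place of TMM (adjusted p = 0.0469, edgeR), without saline germ replicate 2 (adjusted p = 0.0447, edgeR) and with DESeq2 (adjusted p = 0.003). Coro1a measured 52.6, 78.5 and 59.4 CPM in dex germ replicates, above all saline germ libraries, with a log2 fold change of 0.37 ± 0.13 (adjusted p = 0.18, edgeR). Spi1 was at 2.88 to 3.59 CPM in dex against 1.93 to 2.14 CPM in saline (0.61 ± 0.27, adjusted p = 0.316, edgeR). Itgb2 (3.41, 6.14 and 3.35 CPM with dex), Fcer1g (4.10, 5.99 and 4.47 CPM) and Cd79a (5.90, 8.39 and 2.75 CPM) overlapped with their saline libraries, and dex replicate 2 was the highest for each. Ighm stayed at 0.279 to 0.573 CPM in the 6 germ libraries, and Lyz2, Ctss and Tyrobp at or under 0.365 CPM.

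Of the wider immune lists, 2 genes were called by edgeR in germ cells, both lower, and DESeq2 called 3. The 2 were 1 of 4 chemokine and cytokine genes tested and 1 of 9 T, NK and innate lymphoid genes tested. Over all 18550 genes tested, 0.507% were called lower and 0.739% higher. Tgfb1, a cytokine with broad effects on immune and stromal cells, measured 112, 92.2 and 136 CPM in saline germ replicates and 61.7, 78.5 and 70.4 CPM in dex germ replicates, with no overlap (-0.70 ± 0.12, adjusted p = 0.0132, edgeR). Lat, the linker of T cell activation, measured 39.5, 44.5 and 47.4 CPM in saline and 28.0, 31.4 and 31.3 CPM in dex (-0.54 ± 0.11, adjusted p = 0.0288, edgeR). Among the markers of other cells in the germ libraries, Inha was called lower, 1 of 6 Sertoli markers, whose sum was 51.4 to 58.5 CPM in saline and 31.7 to 39.9 CPM in dex.

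The difference between the dex effects of germ and somatic cells was tested over all 12 libraries, where 0.827% of 20551 genes were called. Of the 38 genes, Coro1a, Mrc1 and Ighm were called, each with a higher value in germ than in somatic cells (0.414% of all genes), and none was called in the other direction (0.414%). For Coro1a the difference was 1.72 ± 0.29 (adjusted p = 0.00995, edgeR) and for Mrc1 it was 1.91 ± 0.35 (adjusted p = 0.0149, edgeR). Both had dex libraries above saline in germ cells and below saline in somatic cells. For Ighm the difference of 3.75 ± 0.74 (adjusted p = 0.0249, edgeR) was called while its 6 germ libraries overlapped at a low level. Its germ libraries held 6 to 12 counts, too few for a test in germ cells alone, and its saline somatic libraries 66 to 144. The difference for Ighm thus rested on its fall in somatic cells, and a separate germ effect was not shown. The call for Ighm was lost with the replicate number as a block (adjusted p = 0.0561, edgeR) and in 7 of the 12 fits that left out a library (adjusted p up to 0.0738, edgeR). Cd79a (2.38 ± 0.58, adjusted p = 0.0644) and Laptm5 (1.88 ± 0.52, adjusted p = 0.109, edgeR) were not called. For Lyz2, Csf1r and the C1q chains the germ level was too low for the difference to be told at this depth, with SE of 0.91, 0.70 and 0.97 to 1.37. Lyz2 and Csf1r fell in somatic cells, but a difference between the populations was not shown for them.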

How the data were processed

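Poly-dT-selected RNA of 12 sorted testis libraries was sequenced, and reads were aligned and counted, by a company for the authors, per the labels with HISAT2 2.0.5 on mm10 and featureCounts 1.5.0-p3. The deposited table of raw counts per gene was the input of the tests, and the FPKM values deposited by the authors served for comparisons between genes. The FPKM constant of a library was 0.956 to 1.04 times its total count. Annotation release and strand setting are not given in the sources used here. Deposited tables of the authors' own DESeq2 1.20.0 comparisons (log2 fold changes and p-values) were not used.

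Each comparison was fitted on its 6 libraries with edgeR 4.0.16 in R 4.3.3 (quasi-likelihood test, TMM, filterByExpr with a minimum count of 10), and the difference of dex effects on all 12. The SE is the log2 fold change divided by the square root of F. The tests were tried on simulated data. Alternatives were library totals, DESeq2 size factors, DESeq2 1.42.0, limma 3.58.1 on log2(FPKM + 0.1), other filters, all 12 libraries, the replicate number as a block and leaving out each library. P-values measure the spread between pooled replicates.

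The members, lists and tests were chosen with earlier results of these data known. Values in every somatic library are given for members called in a dex comparison and, in each role group, for the member of highest FPKM and the member with the most counts among those not called. For germ libraries, values by library are given for only some of these members. Genes of the other lists are named where called in a dex comparison, and exceptions are marked. Same-numbered saline germ and saline somatic libraries deviated together (r = 0.107, 0.183 and 0.147 across genes, no other pairing of these 2 groups over 0.1). Same-numbered dex germ and dex somatic libraries did not (r = -0.0125, -0.0438 and -0.00829). The labels do not say whether same-numbered libraries share testes. The main fits used no pairing, and the replicate number entered only as the block of an alternative fit. With that block 24 members were called between saline germ and saline somatic cells. Same-numbered dex and saline libraries did not all deviate together (r from -0.0163 to 0.02 in somatic and from -0.244 to 0.152 in germ cells, where dex replicate 2 and saline replicate 3 had the highest r, 0.379). No replicates were copies of each other. Coordinates of 31 of the 38 genes equalled those in GENCODE M21, from which exon overlaps were taken.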

Additional observations from a re-analysis of the deposited data

Results flagged for a closer look

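The effect of dex was called different between germ and somatic cells, by a contrast over all 12 libraries in edgeR, for 5 of the immune genes examined. These were 3 of the 38 members, 1 of 55 other macrophage and myeloid genes tested and 1 of 11 chemokine and cytokine genes tested. None was called in the other wider lists. Over all 20551 genes tested, 0.827% were called. The log2 difference, germ minus somatic, was 1.72 ± 0.29 for Coro1a (adjusted p = 0.00995), 1.91 ± 0.35 for Mrc1 (adjusted p = 0.0149) and 3.75 ± 0.74 for Ighm (adjusted p = 0.0249, edgeR). It was 2.08 ± 0.45 for Nckap1l, a subunit of the actin regulator of blood cells that carries the name HEM1 and is named for this difference (adjusted p = 0.0392, edgeR). Nckap1l measured 13.4, 13.6 and 16.1 CPM in dex germ replicates against 13.4, 10.7 and 9.76 CPM in saline germ replicates, and 1.47, 0.760 and 0.504 CPM in dex somatic replicates against 2.23, 2.55 and 4.28 CPM in saline somatic replicates. For Tgfb1 the difference was -0.85 ± 0.19 (adjusted p = 0.0486, edgeR), with 37.2 to 46.3 CPM in dex and 34.5 to 40.9 CPM in saline somatic cells.

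The calls for Coro1a and Mrc1 were lost with limma on FPKM (adjusted p = 0.0657 and 0.0737), and that for Mrc1 also without saline germ replicate 1 (adjusted p = 0.055, edgeR). Ighm was not called under 7 of the 12 fits that left out a library, nor with the replicate block (adjusted p = 0.0561, edgeR). It had too few counts for a test in germ cells alone, so its difference rested on the fall in somatic cells. Groups of 3 libraries are too small for a test of single libraries that stand apart.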

How the results depend on the processing

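In somatic cells the 11 calls among the 38 genes became 5 with limma on log2(FPKM + 0.1) and 7 with at least 10 counts in every library, and 4 to 10 when a library was left out, with 4 without saline replicate 3 and 5 without dex replicate 2 or dex replicate 3. In germ cells the count went from 0 to 1 with library totals, 1 with DESeq2 and 2 without a filter, and lay between 0 and 1 with a library left out (1 without saline germ replicate 2). Between saline germ and somatic cells 24 calls became 8 with at least 10 counts in every library, where fewer genes are tested, and 25 to 28 with a library left out. For the difference of dex effects 3 calls became 5 with DESeq2, 1 with limma on FPKM and 5 without a filter, and 1 to 4 with a library left out (1 without saline germ replicate 1). Of the 65 other macrophage and myeloid genes, 4 called lower in somatic cells became 8 called with DESeq2 and 1 with limma, and of the 21 monocyte and granulocyte genes 3 became 3 and 1. The causes of these moves were not tested, and the share called over all genes in each of these fits is not given here. The median log2 fold change of the germ cell members tested turned from 0.158 to -0.0745 without a filter, -0.0436 in a fit of all 12 libraries and -0.0967 without dex germ replicate 2 (leave-out range -0.0967 to 0.288). Uncalled somatic values that turned sign were Lyve1 (0.64 without saline replicate 3, the top of a leave-out range from -0.98), Cd14 (-0.0092 with library totals, -0.03 without dex replicate 3, -0.42 without saline replicate 2, the foot of a leave-out range up to 0.67) and S100a9 (-0.33 without dex replicate 2, -0.10 without saline replicate 2, in a leave-out range up to 0.36). With the replicate number as a block, 9 members were called in somatic cells, 0 in germ cells, 24 between the saline populations and 2 for the difference of effects, and Cd79a (adjusted p = 0.0842), Cx3cr1 (0.0546) and Tyrobp (0.0918) lost and C1qa (0.0411) gained a call in somatic cells, and dex and saline libraries there share a number only. No dex-to-saline ratio of summed levels turned direction (0.477 to 0.631 in somatic and 1.17 to 1.22 in germ cells over CPM, library totals and FPKM). Depth limits genes under about 1 CPM, where a library holds few counts.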

Other observations

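Between saline germ and saline somatic cells the wider immune lists were called in both directions (edgeR), against 39.8% of all genes tested higher in germ cells and 36.7% lower. In the other macrophage and myeloid list 15 of 51 tested were higher and 28 lower, in the monocyte and granulocyte list 2 of 11 and 8, in the B cell list 2 of 6 and 2, and in the T, NK and innate lymphoid list 6 of 8 and 1. In the chemokine and cytokine list 2 of 9 were higher and 6 lower, in the antigen presentation list 2 of 9 and 5, in the ligand list 0 of 4 and 3, and in the mast cell and basophil list 0 of 2 and 2. Genes with few counts in germ or in somatic cells passed the filter through the other population, which favoured a call. The genes named next were chosen after their values were seen, among those higher in germ cells. Mmp9, the gelatinase of neutrophils, measured 227, 194 and 267 CPM in saline germ replicates and 1.57, 1.098 and 1.99 CPM in saline somatic replicates, a log2 fold change of 7.21 ± 0.19. Was, the Wiskott-Aldrich syndrome protein of blood cells, measured 17.47, 18.6 and 19.1 CPM in saline germ and 1.27, 0.834 and 0.632 CPM in saline somatic replicates (4.33 ± 0.26). Runx1, a transcription factor of blood stem cells, measured 20.98, 17.6 and 21.9 CPM against 2.49, 1.76 and 1.85 CPM (3.31 ± 0.22), and Ikzf1, the lymphoid factor Ikaros, 9.63, 9.27 and 9.86 CPM against 1.22, 1.19 and 0.826 CPM (3.14 ± 0.27).

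In each of these genes every germ library lay above every somatic library, dex included. Bank1, a B cell scaffold protein, measured 10.03, 12.3 and 11.7 CPM in saline germ replicates and had 0 counts in 5 of 6 somatic libraries and 0.0439 CPM in the other, and Clec10a, a macrophage lectin, measured 4.90, 4.12 and 7.15 CPM with 0 counts in all 3 saline somatic libraries. In the same germ libraries Ptprc was at 0.0461 to 0.263 CPM, C1qa at 0 to 0.429 CPM and Tyrobp at 0 to 0.175 CPM, and S100a8, S100a9 and Ccr2 had 0 counts. Other members were higher there, among them Coro1a (873 to 2124 counts), Itgb2 (66 to 166), Fcer1g (77 to 162) and Cd68 (59 to 106). The low and the high members were both picked after their values were seen, and the cells that held these transcripts were not tested.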
